A study of Mus musculus with 3 samples.

Results

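The immediate early genes are transcribed within minutes of a stimulus, without the need for new protein, and serve as a readout of recent neuronal activity and of growth factor or stress signals. Calcium entry and MAP kinase signalling activate SRF with its ETS partners, CREB and MEF2 at their promoters. The products include transcription factors of the AP-1, EGR, NR4A and NPAS4 kinds, which act on later genes, and effectors such as the synaptic protein Arc and the MAP kinase phosphatase Dusp1. In the developing cerebellum these genes respond to depolarisation and to growth factors in granule neurons, and they are also induced in glia and vessels.

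The genes followed here were Fos, Fosb, Jun, Junb, Egr1, Egr2, Arc, Nr4a1, Dusp1 and Npas4, a set of well-known immediate early genes. Each was read through every probe whose platform symbol, brought up to date, is one of these names. All 10 were measured on all 3 arrays, out of 19855 named genes, through 12 probes. A single probe stood for 8 of them, whereas Fosb and Npas4 had 2 probes each. The Npas4 probes carry the older symbol Nxf on the array and were named through this synonym.

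The study set cerebella of Smarca5 conditional knockout mice (cKO) beside those of wild-type mice, both on the C57Bl/6 strain and both at postnatal day 10. Smarca5 encodes the ATPase of ISWI chromatin remodelers, which space nucleosomes. Each of 3 arrays with 2 colours held 1 cKO and 1 wild-type RNA sample, and the cKO carried Cy5 on replicates 1 and 2 and Cy3 on replicate 3. The labels used here do not name the Cre driver of the deletion, nor do they say whether a sample was 1 animal or a pool. The p-values therefore rest on array-to-array spread alone, and this may be technical.

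Each value below is a log2 ratio with the cKO on top and the wild type beneath, centred on 0 over the probes of its array, so a value below 0 means lower in the cKO. Fold changes hold only if the base of the deposited logarithm is 2, which no source states. A ratio holds no level, so the signal of a gene over background, its level in either genotype and the marker content of the tissue could not be read. In whole cerebellum, fewer cells of a type and less RNA per cell cannot be told apart. Smarca5 had -0.75, -0.96 and -0.88 on replicates 1, 2 and 3, a mean of -0.86 ± 0.11 (SD, n = 3), and this sign helped to set the direction of the ratios.

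The members went both ways. Dusp1, Nr4a1, Fos and Jun were below 0 on all 3 arrays, Arc and the average of the Fosb probes were above 0 on all 3, and Junb, Egr1, Egr2 and Npas4 had mixed signs. Of all 28194 features tested, 21.4% were below 0 on all 3 arrays and 22.1% were above 0 on all 3, against 4 and 2 of the 10 members. None of the 10 passed an adjusted p of 0.05 in limma (Benjamini-Hochberg over all features), and 0% of all features did. With 3 arrays, a missed threshold does not show that a gene did not differ. Before adjustment, Dusp1, Nr4a1 and Arc had p under 0.05 in limma, 3 of 10 members against 20.9% of all features. The count of 3 became 1 with a dye term, without moderation of the variances or without replicate 1. Over all features the counts at that p also fell, from 2814 lower and 3079 higher. They were 2641 and 2876 with a dye term, 2208 and 2360 without moderation, and 1673 and 1897 without replicate 1. Without replicate 1 the members above 0 on both remaining arrays numbered 4. A shared sign is easier to keep on 2 arrays than on 3, and the matching share of all features was not counted. The median of the members' means was 0.008, against 0.003 over all features.

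**Figure D1:**
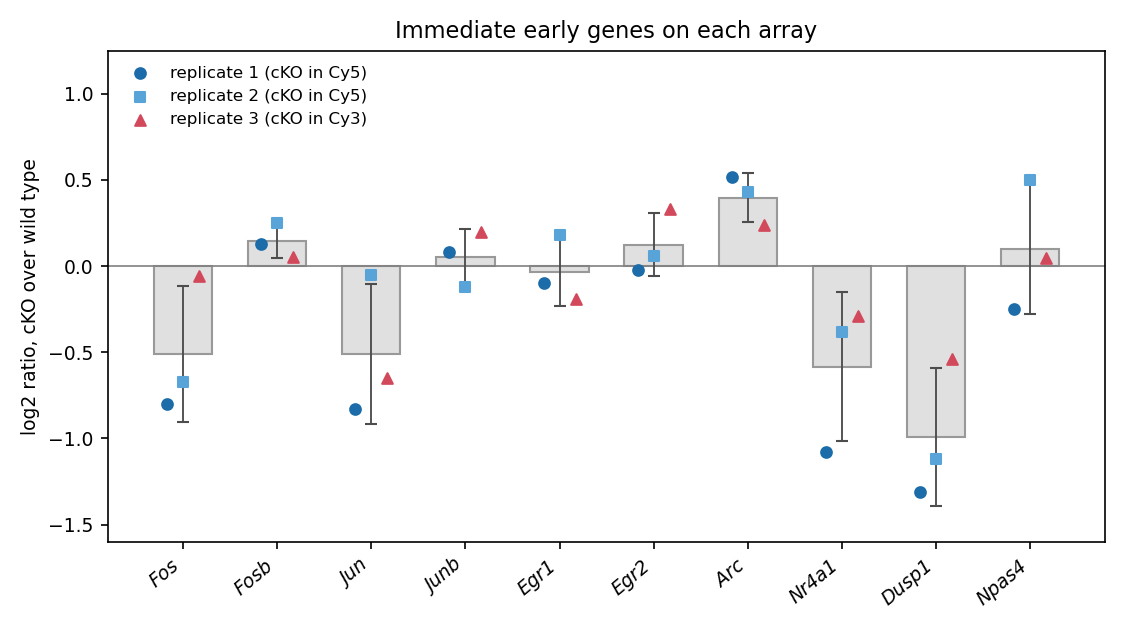
Log2 ratio of cKO over wild type (y axis) for the 10 immediate early genes (x axis). Symbols are the 3 arrays, grey bars the mean and error bars the SD. Dusp1 lies lowest, from -1.31 to -0.54, and Arc highest, from 0.24 to 0.52.

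Dusp1, which encodes the nuclear phosphatase that removes phosphate from MAP kinases and so ends their signal, had the largest difference of the members. Its ratios were -1.31, -1.12 and -0.54 on replicates 1, 2 and 3. All arrays lay below 0, and the array with exchanged dyes lay nearest to it. The mean was -0.99 ± 0.40 (SD, n = 3), which is 1.99-fold lower, with a 95% interval of -1.54 to -0.44 (limma, adjusted p = 0.115). Of all features, 1.84% had a lower mean.

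Nr4a1, the orphan nuclear receptor Nur77, had -1.08, -0.38 and -0.29. Replicate 1 was far below the other arrays, which lay close together. The mean was -0.58 ± 0.43 (SD, n = 3), 1.5-fold lower, with a 95% interval of -1.16 to -0.01 (limma, adjusted p = 0.235). Without replicate 1 the mean was -0.34.

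Fos, the founding subunit of the AP-1 factor, had -0.80 and -0.67 on the arrays with the cKO in Cy5 and -0.06 on the array with the cKO in Cy3. The size of its ratio thus differed with the dye orientation, of which the flipped one rests on a single array. Its mean was -0.51 ± 0.40 (SD, n = 3), 1.42-fold lower, and the 95% interval of -1.05 to 0.03 includes 0 (limma, adjusted p = 0.26). Jun, its main partner in AP-1, had the same mean of -0.51 ± 0.41 (SD, n = 3) but another order of arrays. Its ratios were -0.83, -0.05 and -0.65, so that replicate 2 lay near 0, and the 95% interval was -1.06 to 0.04 (limma, adjusted p = 0.268). Fos and Jun therefore shared a low value only on replicate 1.

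The stretches before the start sites of these lower genes are shown because CREB, SRF and EGR factors are known to bind such stretches of immediate early genes. They are the 250 bases before the start in the RefSeq table (GRCm38.p6), with the matches in capitals. Fos lies at chr12:85473640-85473889 on the plus strand, Nr4a1 at chr15:101266596-101266845 on the plus strand and Dusp1 at chr17:26508473-26508722 on the minus strand. Each is written 5′ to 3′ along its gene.
Fos: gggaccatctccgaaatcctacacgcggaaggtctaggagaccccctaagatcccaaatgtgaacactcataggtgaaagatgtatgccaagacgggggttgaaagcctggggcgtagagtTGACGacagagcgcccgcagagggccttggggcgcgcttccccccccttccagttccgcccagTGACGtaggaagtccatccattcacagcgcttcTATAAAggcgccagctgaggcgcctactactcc
Nr4a1: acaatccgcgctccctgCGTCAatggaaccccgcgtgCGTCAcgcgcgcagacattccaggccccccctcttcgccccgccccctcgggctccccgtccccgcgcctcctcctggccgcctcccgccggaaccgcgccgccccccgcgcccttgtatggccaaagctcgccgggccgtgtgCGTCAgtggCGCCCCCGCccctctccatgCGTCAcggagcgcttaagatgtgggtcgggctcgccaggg
Dusp1: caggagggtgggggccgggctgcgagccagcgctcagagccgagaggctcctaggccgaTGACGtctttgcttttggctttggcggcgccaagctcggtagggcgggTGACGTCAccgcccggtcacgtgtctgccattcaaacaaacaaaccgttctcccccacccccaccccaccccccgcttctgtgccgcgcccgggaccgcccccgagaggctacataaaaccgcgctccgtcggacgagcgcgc
Motifs were searched on both strands. These were the CRE half-site TGACG, the full CRE TGACGTCA, which holds an overlapping half-site on each strand, the AP-1 site TGANTCA, the EGR site GCGNGGGCG, the TATA box TATAAA and the CArG box, where SRF binds.

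Fos had CRE half-sites starting at -129 and -66 and a TATA box at -33, counted from the start site. Nr4a1 had 4 half-sites, at -233, -213, -69 and -40, all on the opposite strand, and an EGR site at -60. Dusp1 had half-sites at -191, -143 and -140, of which the last 2 form a full CRE. In the same stretch of Jun no exact match to any of these motifs was found. It does hold TGACATCA, which differs from the full CRE at a single base. No CArG box was found in the stretches shown for Fos, Nr4a1 and Dusp1. Bases further upstream and inexact matches were not searched, so a missing match does not show that a gene lacks the site. Of the 8 members in the table, 7 held a half-site in at least 1 annotated promoter, among them Fosb, Junb, Egr2 and Npas4, whose mean ratios lay above 0. Arc and Egr1 were absent from the table, so their promoters were not searched. Among the 8 searched, only Egr2 held a CArG box. Egr2 has 5 annotated starts, and a match at any of them counted. Counts by gene are therefore unlike the shares by single window that follow. Over 32851 promoter windows of this length, 17.8% held the half-site, 1.55% the full CRE, 6.75% the AP-1 site, 4.7% the EGR site, 12.4% the TATA box and 1.47% the CArG box. A match is a description of letters, not a binding site.

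Arc encodes a synaptic protein that drives removal of AMPA receptors, and its mRNA moves into dendrites. It was the highest of the members, with ratios of 0.52, 0.43 and 0.24. All arrays lay above 0. The mean was 0.40 ± 0.14 (SD, n = 3), 1.32-fold higher, with a 95% interval of 0.04 to 0.75 (limma, adjusted p = 0.207). Of all features, 30.5% had a mean of larger size, so the value itself was not extreme.

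The remaining AP-1 and EGR members stayed near 0. Fosb, a Fos paralog, had 0.13, 0.25 and 0.06 as the average of its probes, a mean of 0.15 ± 0.10 (SD, n = 3) with a 95% interval of -0.19 to 0.48 (limma, adjusted p = 0.566). Junb, which can hold back Jun in AP-1, had 0.08, -0.12 and 0.20, a mean of 0.05 ± 0.16 (SD, n = 3; 95% interval -0.31 to 0.42). Both intervals allow changes of less than 0.5 in either direction.

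Egr1, a zinc finger factor also known as Zif268, had -0.10, 0.18 and -0.19. Its mean was -0.04 ± 0.19 (SD, n = 3) with a 95% interval of -0.42 to 0.34 (limma, adjusted p = 0.918). Of all features, 90.2% had a mean of larger size. Egr2, known as Krox20, had -0.02, 0.06 and 0.33, and a mean of 0.12 ± 0.18 (SD, n = 3; 95% interval -0.25 to 0.50). Neither kept 1 sign on the arrays.

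Npas4, a bHLH-PAS factor that responds to calcium entry in neurons, had -0.25, 0.50 and 0.05 as the average of its probes, a mean of 0.10 ± 0.38 (SD, n = 3; limma, adjusted p = 0.821). That average hides probes that did not run together. The first had 0.41, 0.43 and 0.38, a mean of 0.41 ± 0.03 (SD, n = 3). The second had -0.91, 0.57 and -0.28, a mean of -0.21 ± 0.74 (SD, n = 3). Tested as single probes in limma, their adjusted p was 0.178 for the first and 0.766 for the second.

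The Fosb probes differed too. The first had -0.10, 0.27 and 0.49 and the second 0.36, 0.23 and -0.38. Neither probe kept 1 sign, so that the positive sign of Fosb on every array holds for the average and not for a probe. Which transcripts the probes match, and so which probe of each pair reads its gene better, was not tested.

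**Figure D2:**
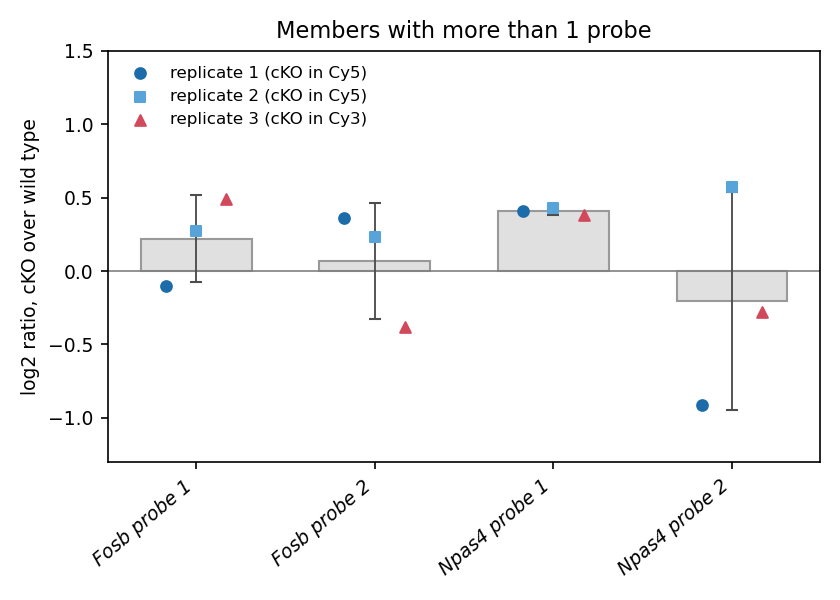
Log2 ratio of cKO over wild type (y axis) for each probe of Fosb and Npas4 (x axis), with the arrays as symbols, the mean as grey bar and the SD as error bar. The first Npas4 probe stays between 0.38 and 0.43, while the second spans -0.91 to 0.57.

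The members were spread about as widely as other features on replicate 1 and less so on replicate 3. Across the 10 genes, the ratios had SDs of 0.60, 0.51 and 0.33 on replicates 1, 2 and 3, against 0.58, 0.66 and 0.62 over all features. On replicate 1, 7 members were below 0, and on each of the other arrays 5 were. The lowest member was Dusp1 on replicates 1 and 2 and Jun on replicate 3, and the highest were Arc, Npas4 and Egr2 on replicates 1, 2 and 3.

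**Figure D3:**
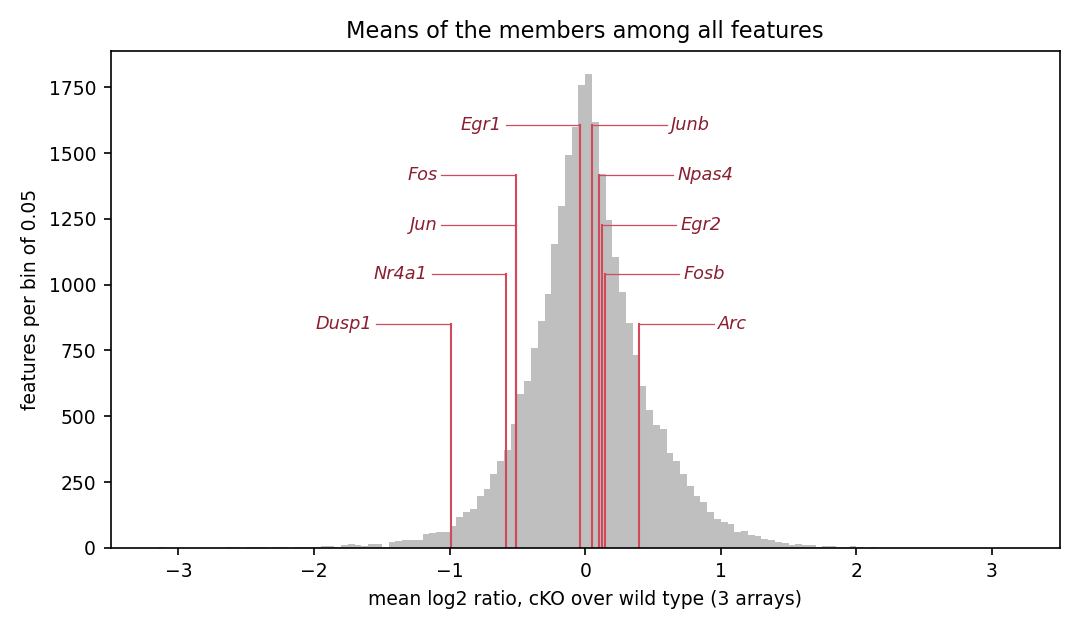
Histogram of the mean log2 ratio of cKO over wild type (x axis, 3 arrays) over all 28194 features, as features per bin (y axis), with red lines at the members. Dusp1 at -0.99 lies in the lower tail, and Egr1, Junb, Npas4, Egr2 and Fosb lie between -0.04 and 0.15 near the centre.

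Paralogs measured on the same arrays showed how uneven the families were. Fos minus Fosb was -0.93, -0.92 and -0.12 on replicates 1, 2 and 3 (mean -0.66 ± 0.47, SD, n = 3). Jun minus Junb was -0.91, 0.07 and -0.85 (mean -0.56 ± 0.55, SD, n = 3). Egr1 minus Egr2 was -0.08, 0.12 and -0.52 (mean -0.16 ± 0.33, SD, n = 3), smaller than its spread. With 3 arrays an exact sign-flip test of such a difference cannot give a two-sided p below 0.25, so none was run.

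Beyond the members, 2 relatives had larger and more even differences. Egr4, the fourth EGR factor, had -1.75, -1.49 and -1.61, a mean of -1.62 ± 0.13 (SD, n = 3; limma, adjusted p = 0.084). Egr3, by contrast, had 1.01, 0.59 and -0.80 (mean 0.27 ± 0.95, SD, n = 3), with its sign turned on the array with exchanged dyes. Nr4a2, known as Nurr1, had -1.27, -1.10 and -0.84 (mean -1.07 ± 0.22, SD, n = 3; limma, adjusted p = 0.084). Nr4a3 had -0.13, -0.32 and -0.96 (mean -0.47 ± 0.44, SD, n = 3). All NR4A receptors were thus below 0 on every array, though none passed the adjusted threshold.

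In the AP-1 families, Fosl2 had -0.54, -0.13 and -0.32 (mean -0.33 ± 0.20, SD, n = 3). Fosl1 had -0.01 ± 0.28 (SD, n = 3) and Jund 0.00 ± 0.64 (SD, n = 3), with Jund spanning -0.63 to 0.65. Among the other MAP kinase phosphatases, 8 of 9 listed genes were measured. Dusp4, a nuclear enzyme like Dusp1, had -0.91, -0.88 and -0.61, a mean of -0.80 ± 0.16 (SD, n = 3; limma, adjusted p = 0.0967). Dusp9 lay the other way at 0.67 ± 0.09 (SD, n = 3; limma, adjusted p = 0.106). Dusp6, a feedback target of FGF and ERK signalling, had -0.68, -0.38 and 0.86. Its sign turned on replicate 3, the only array with exchanged dyes, so dye and array cannot be told apart. Of the 8 genes, 2 were below 0 on all arrays and 3 above, against 21.4% and 22.1% of all features.

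**Figure D4:**
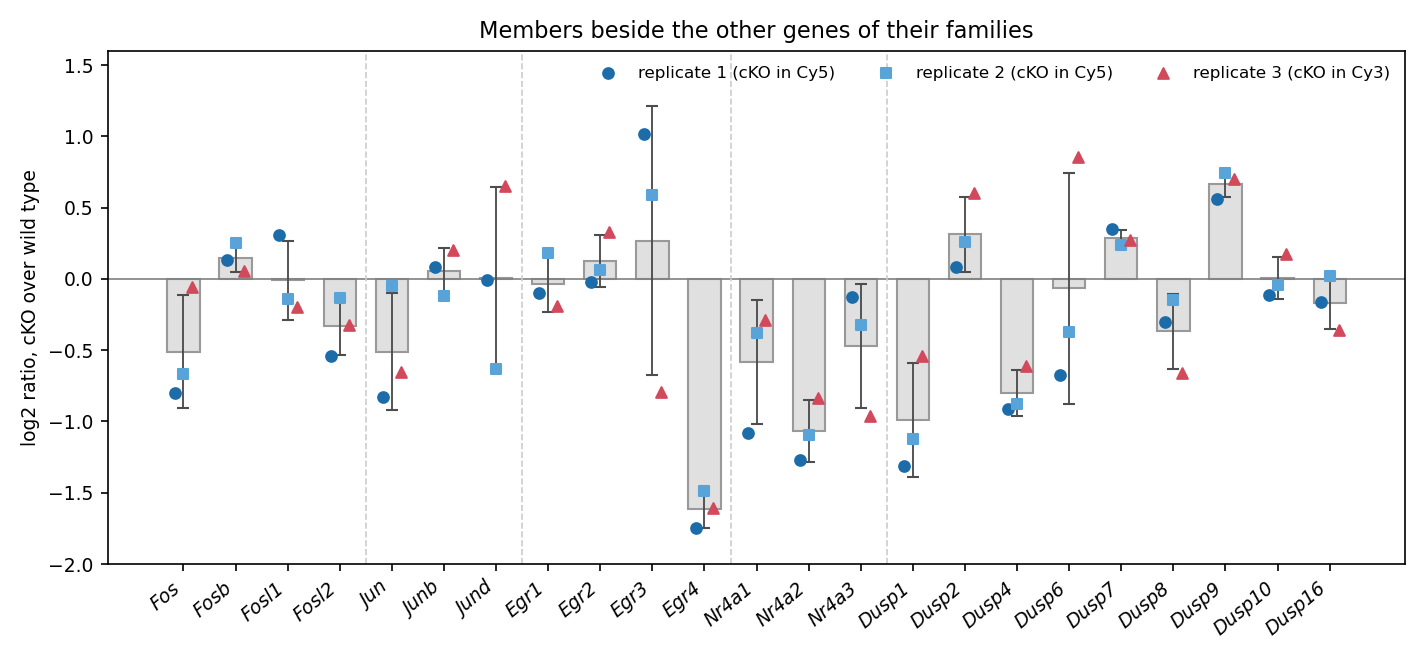
Log2 ratio of cKO over wild type (y axis) for Fos, Jun, EGR, NR4A and MAP kinase phosphatase genes (x axis, families separated by dashed lines), with arrays as symbols, means as bars and SD as error bars. Egr4 lies lowest at -1.62 and Dusp9 highest at 0.67, while Egr3 and Dusp6 turn sign on replicate 3.

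A list of 33 further immediate early genes, all measured, had a median of -0.003. On all arrays 10 were below 0 and 6 above, and 0 passed the adjusted threshold, while 6 were lower and 2 higher at unadjusted p under 0.05 in limma. Over all features, 21.4% were below 0 on all arrays and 22.1% above. At unadjusted p under 0.05 in limma, 9.98% of all features were lower and 10.9% higher. Egr4 and Nr4a2 had the smallest p of the list. Further genes, picked after their values were seen, were Klf10, a TGF-beta-induced zinc finger factor, with -0.92 ± 0.23 (SD, n = 3), and Homer1, a postsynaptic scaffold with an activity-induced short form, with -0.34 ± 0.04 (SD, n = 3). Ptgs2, the inducible cyclooxygenase and picked likewise, lay above 0 at 0.79 ± 0.41 (SD, n = 3).

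Of 8 listed genes of the later activity response, 7 were measured, with a median of 0.08. On all arrays 0 were below 0 and 4 above, and 3 had mixed signs, where over all features 21.4% were below and 22.1% above. Nptx2, a pentraxin that gathers AMPA receptors, had 0.87, 1.41 and 0.84, a mean of 1.04 ± 0.32 (SD, n = 3; limma, adjusted p = 0.0978). Pcsk1, a protease of prohormones, had 0.60, 1.20 and 0.60, a mean of 0.80 ± 0.35 (SD, n = 3; limma, adjusted p = 0.131). Bdnf, the neurotrophin and a textbook target of CREB and Npas4, had -0.17 ± 0.26 (SD, n = 3) over 6 probes, a value picked after it was seen.

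The listed factors that act on immediate early promoters were mostly below 0. This list, like the others, was chosen with earlier results of these data known, so its counts are a description only. Of 16 listed, all measured, 11 were lower on all arrays and 2 higher, and 9 were lower and 0 higher at unadjusted p under 0.05 in limma, with 0 past the adjusted threshold. Over all features, 21.4% were lower and 22.1% higher on all arrays, and 9.98% lower and 10.9% higher at unadjusted p under 0.05. The list's median was -0.41, with -0.33, -0.43 and -0.35 on replicates 1, 2 and 3. Without replicate 1, 11 were lower on both remaining arrays, which is easier to meet than on 3, and the matching share of all features was not counted. The list's count at unadjusted p under 0.05 was 3 without replicate 1, 5 without replicate 2 and 8 without replicate 3. Over all features, 1673 were lower and 1897 higher at that p without replicate 1. There were 1910 and 2160 without replicate 2, and 2294 and 2752 without replicate 3, against 2814 and 3079 on all arrays.

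Crtc2, a calcium-regulated coactivator of CREB, lay between -0.995 and -0.675 on the arrays, with a mean of -0.88 ± 0.17 (SD, n = 3; limma, adjusted p = 0.0934). Mef2a, a factor of activity-dependent transcription, had -0.76, -0.67 and -0.63, a mean of -0.69 ± 0.06 (SD, n = 3; limma, adjusted p = 0.101). Picked after their values were seen, Elk1, the ETS partner of SRF, had -0.88 ± 0.28, Creb1 -0.60 ± 0.16 and Srf -0.25 ± 0.07 (SD, n = 3 each). Elk3, of the same ETS group and picked likewise, had 0.23 ± 0.10 (SD, n = 3) and lay above 0 on every array.

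Of 22 kinases and phosphatases between calcium or growth factor signals and these factors, 19 were measured. On all arrays 8 were lower and 2 higher, against 21.4% and 22.1% of all features, with a median of -0.08. Rps6ka1, the kinase RSK1 downstream of ERK, had -1.93, -1.73 and -1.40, a mean of -1.69 ± 0.27 (SD, n = 3; limma, adjusted p = 0.084). Rps6ka5, the kinase MSK1 that phosphorylates CREB and histone H3, had -0.68 ± 0.09 (SD, n = 3; limma, adjusted p = 0.105). Camk4, a CREB kinase abundant in granule neurons and picked after its value was seen, had -0.83 ± 0.29 (SD, n = 3), whereas Mapk3, the kinase ERK1, picked likewise, had 0.005 ± 0.19 (SD, n = 3).

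**Figure D5:**
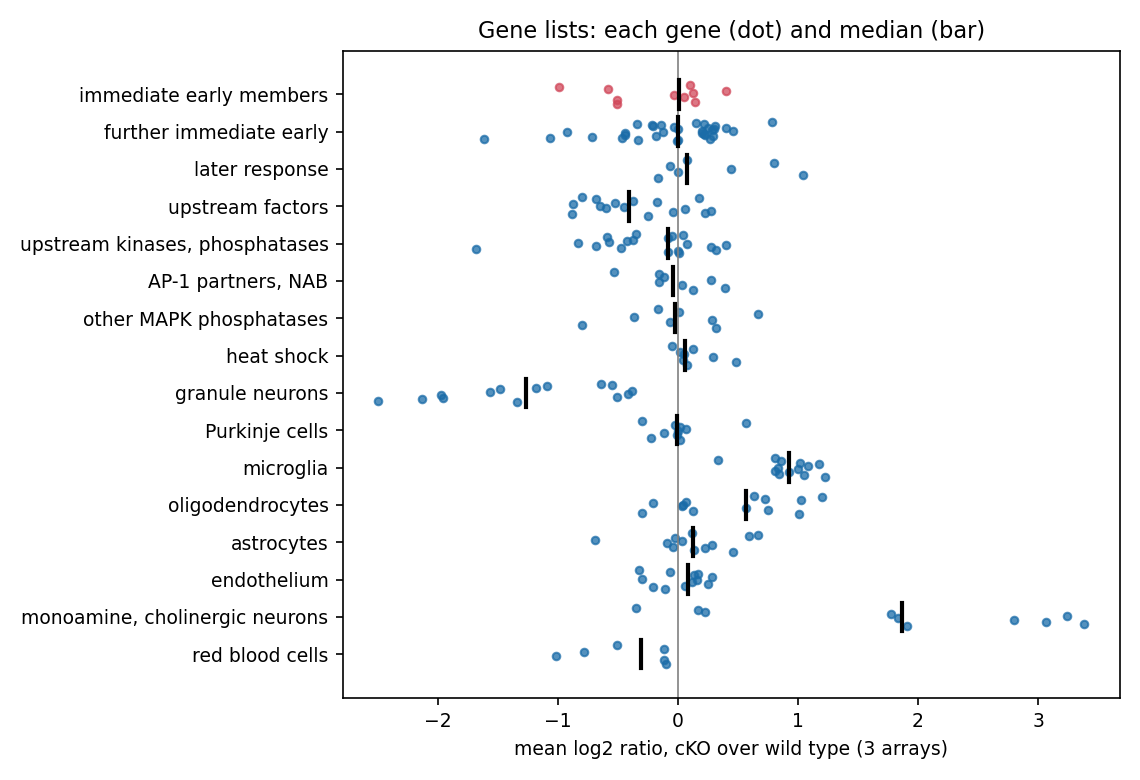
Mean log2 ratio of cKO over wild type (x axis, 3 arrays) of each measured gene (dots) in the members (red) and the other lists (blue, rows), with black bars at the medians. The medians are 0.008 for the members, -0.41 for the upstream factors, -1.26 for granule neurons and 0.93 for microglia.

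Marker lists of cell types moved on the same arrays. Of 14 measured granule neuron markers, 13 were lower on all arrays, against 21.4% of all features. The medians of the list were -1.58, -1.35 and -0.93 on replicates 1, 2 and 3. Etv1 and Gabrd had the smallest p, with means of -1.96 ± 0.18 and -2.50 ± 0.36 (SD, n = 3 each). All 13 measured microglial markers were higher on all arrays, against 22.1% of all features, with medians from 0.89 to 0.94. Among them were Fcer1g at 1.17 ± 0.11 and Aif1 at 1.23 ± 0.19 (SD, n = 3 each).

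The list for brainstem and midbrain was made of monoamine and cholinergic neuron genes with hindbrain Hox genes. Of its 10 measured genes, 8 were higher on all arrays, against 22.1% of all features, with medians from 1.64 to 2.27. Ddc had 1.83 ± 0.13 and Slc18a2 3.24 ± 0.72 (SD, n = 3 each). The genes of this list were uneven. Picked after their values were seen, Chat had 0.23 ± 0.14, Hoxa5 0.17 ± 0.27 and Hoxb2 -0.35 ± 0.72 (SD, n = 3 each). Both Hox genes had mixed signs. The red blood cell list, of 6 measured genes, had medians of -0.66, 0.08 and -1.49 on replicates 1, 2 and 3. The part of any of these lists in the members' ratios was not tested. Medians of the endothelium list ranged from -0.02 to 0.10 and of the Purkinje cell list from -0.04 to -0.01, each near 0.

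The named gene nearest to a member over the 3 ratios, by Euclidean distance, was taken for the 6 members with 1 sign on all arrays. Dusp1 was nearest to Ccne2, a cyclin of S phase entry, at a distance of 0.044, and 4 named genes lay within 0.2 of it. Nr4a1 was nearest to Nr2e3 (distance 0.102) and Jun to Gmeb2 (0.094). Fos was nearest to 1700063H04Rik (0.042), Arc to 0610040B10Rik (0.037) and Fosb to Zc3h15 (0.026). Within 0.2 lay 908 named genes for Fosb. Such counts depend on how far a member lies from 0, where most genes are, so the low count for Dusp1 reflects its place in the tail. Nearness over 3 values says little for any member.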

How the data were processed

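RNA of cKO and wild-type cerebella was compared on 3 arrays with 2 colours, per the labels. The deposited table holds 1 log ratio, read here as log2, per probe and array for 38880 probes, with a median of 0 on each array. No source used here states the log base, the background correction or the normalization. Spot intensities were not analysed here, so dim probes were not filtered, and the number of arrays limits the precision. Channel 2 (cKO) was taken as the numerator and channel 1 (wild type) as the denominator. In 49 unnamed spots over 5 in size on every array the mean was -7.81, -7.86 and 7.66 on replicates 1, 2 and 3. They follow the dye and were left out, after which Pearson's r across probes was 0.44, 0.274 and 0.229 between replicates 1 and 2, 1 and 3, and 2 and 3. This direction was taken from the labels and the lower Smarca5.

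Platform symbols, which are old, were updated without regard to case through a RefSeq gene table. Of the probes, 19043 matched a current symbol, 11114 a synonym of 1 gene, 300 kept the array's symbol and 8423 are unnamed here. Probes of a gene were averaged on each array. Features with values on all 3 arrays, 19855 named genes and 8339 unnamed probes, were tested against 0 with limma 3.58.1 in R 4.3.3 (intercept, eBayes, two-sided, 2 residual degrees of freedom, prior of 2.09), adjusted by Benjamini-Hochberg at 0.05. Errors are SD over arrays. Python 3.11.15, pandas 2.3.3 and matplotlib 3.10.9 were used.

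Named were all members, Smarca5, the 2 genes of smallest p of each other list, relatives of the Fos, Jun, EGR, NR4A and MAP kinase phosphatase families, and the nearest gene of members with 1 sign. Other genes were picked after their values were seen and are marked so in the text. Members and lists were chosen with earlier results of these data known. Promoters came from a RefSeq table that listed 8 of the 10 members, all but Arc and Egr1. The 13 alternatives are given in the closing section.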

Additional observations from a re-analysis of the deposited data

How the results depend on the processing

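Under 13 alternatives, Dusp1, Nr4a1, Fos, Jun, Arc, Fosb and Egr2 kept their direction, and no member passed the adjusted threshold in limma. Leaving out 1 array gave Dusp1 -1.22 to -0.83, Nr4a1 -0.73 to -0.34, Fos -0.74 to -0.37, Jun -0.74 to -0.35, Arc 0.34 to 0.48, Fosb 0.09 to 0.19 (lowest without replicate 2) and Egr2 0.02 to 0.20 (lowest without replicate 3), whereas Junb (-0.02 to 0.14), Egr1 (-0.15 to 0.04) and Npas4 (-0.10 to 0.28) turned sign. Npas4 was also -0.21 by its second probe alone. The count of members at unadjusted p under 0.05 was 1 with a dye term (Dusp1) and 1 without moderation (Arc). It was 1 without replicate 1 (Dusp1), 2 without replicate 2 (Dusp1 and Jun) and 3 without replicate 3 (Dusp1, Fos and Arc). This count was 2 with arrays scaled or with robust moderation, each without Nr4a1. With each probe on its own it was 4 of 12 probes, where the first Npas4 probe joined. Members above 0 on all remaining arrays numbered 2 to 4, with the 4 seen without replicate 1, and those below 0 numbered 4 to 5. Where an array was left out a shared sign is easier to keep, and the matching share of all features was not counted. With each probe on its own, 2 were above 0 on all arrays, and these were Arc and the first Npas4 probe, not Fosb. Without moderation 2 features passed the adjusted threshold, Cerk at -0.06 and an unnamed probe at 0.1, because their rounded values were equal on all arrays. Leaving out 1 array gave 1673 to 2294 lower and 1897 to 2752 higher features at unadjusted p under 0.05, against 2814 and 3079, with the lowest counts without replicate 1, and 0 past the adjusted threshold in each case. Other settings left these counts within 1.5 times. Each ratio already sets a cKO sample against the wild-type sample of its array, so the test itself is paired by array. No paired analysis was possible beyond this, because the ratio holds no separate value of either sample.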

Other observations

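The heat shock list, measured in full with 8 genes, had a median of 0.06. Above 0 on all arrays were 2 of the 8, against 22.1% of all features. Hspa1b, an inducible chaperone of the HSP70 family, had 0.47, 0.39 and 0.60 (mean 0.49 ± 0.11, SD, n = 3; limma, adjusted p = 0.147), and Dnajb1, its cochaperone, had 0.29 ± 0.10 (SD, n = 3; limma, adjusted p = 0.291). Hspa1a, a near-identical copy of Hspa1b and picked after its values were seen, had -0.35, 1.19 and -0.61, so the probes of the pair differed, and whether they bind both copies was not tested.

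Of 9 listed partners of AP-1 and corepressors of EGR factors, 8 were measured, with a median of -0.04. Nab2, a corepressor that EGR factors induce and that limits them in turn, had -0.70, -0.30 and -0.61 (mean -0.53 ± 0.21, SD, n = 3; limma, adjusted p = 0.159). Mafg, a small MAF partner, had 0.28 ± 0.18 (SD, n = 3; limma, adjusted p = 0.349). Among the other cell type lists, the oligodendrocyte list had a median of 0.57, with 8 of 13 measured genes above 0 on all arrays, 2 below and 3 mixed. Over all features, 22.1% were above 0 on all arrays and 21.4% below. Opalin had 1.20 ± 0.17 and Enpp6 1.02 ± 0.15, while, picked after their values were seen, Cspg4 had -0.30 ± 0.17, Mog -0.21 ± 0.09 and Mbp 0.04 ± 0.05 (SD, n = 3 each). The astrocyte list had a median of 0.13, with Gdf10 at -0.69 ± 0.17 and Hes5 at 0.67 ± 0.25 (SD, n = 3 each). The Purkinje genes Foxp2 and Rora had 0.57 ± 0.20 and -0.30 ± 0.12, the endothelial genes Esam and Slco1a4 -0.30 ± 0.10 and 0.29 ± 0.31, and the red cell genes Hbb-y and Epb42 -1.02 ± 0.96 and -0.51 ± 0.84 (SD, n = 3 each).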
